A study of Mus musculus with 27 samples.

Results

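Chemokine ligands were followed across a mouse periportal liver culture series as all genes whose name is Ccl, Cxcl, Cx3cl or Xcl followed by a number and at most 1 letter. The rule used gene names alone and found 39 of the 21850 genes in the count table. Bulk RNA-seq was compared in 27 libraries, 3 for each of 9 conditions, from cells of adult C57BL/6 mice of both sexes. The conditions were freshly isolated hepatocytes, hepatocyte organoids (HepOrgs) and periportal assembloids. HepOrgs were at passage 2 and had been kept for 7 or 14 days in either HM-Wnt, the organoid medium, or MM, which is also used for portal mesenchyme. Both media held Wnt-conditioned medium and a ROCK inhibitor. HM-Wnt also held EGF, HGF, FGFs, RSPO-conditioned medium, gastrin, nicotinamide and further small molecules, which MM lacked. Assembloids joined 10 HepOrgs with 1000 cholangiocytes and with 250 (homeostatic) or 2500 (fibrotic-like) portal mesenchymal cells, and were kept in MM for 7 or 18 days (1 week and 2.5 weeks in the labels). The genotype of these libraries was given as wild type, except that freshly isolated hepatocyte replicate 3 was titled WT while its genotype field read MDR2-het. The fibrotic-like state was set by the number of mesenchymal cells, the mesenchymal cells and cholangiocytes had been expanded in culture, and no immune or endothelial cells were added.

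Chemokines are small secreted or membrane-bound proteins that direct the migration of leukocytes and other cells through G protein-coupled receptors. They are grouped by the spacing of their first cysteines into the CC, CXC, CX3C and C classes, and many of their genes lie in clusters. In the liver they are made by hepatocytes, cholangiocytes, stellate cells and portal fibroblasts, endothelium and resident macrophages, and they recruit neutrophils, monocytes and lymphocytes to portal tracts during injury. Atypical receptors bind chemokines without classical signalling and remove them, and proteases trim or shed them.

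Of the 39 genes, 26 had a mean of at least 1 TPM (counts scaled to gene length and to the library's total) in at least 1 condition. Of the other 13, 6 (Ccl2, Ccl21b, Ccl21d, Ccl27b, Cxcl10 and Cxcl11) were listed at 0 in all 27 libraries, and Ccl1, Ccl21a, Ccl22, Ccl26 and Xcl1 had at most 11 counts in any library. Ccl28 and Cxcl15 stayed below a mean of 1 TPM, and Ccl17, one of the 26, reached at most 25 counts. Cxcl10 and Cxcl11, the interferon-induced attractants of activated T cells, lie inside the annotated span of Art3. Over the whole table, 83.0% of genes nested within another gene were listed at 0, against 14.9% of genes that overlap none, so a 0 for Cxcl10 and Cxcl11 is not read here as absence of expression. Ccl21b, Ccl21d and Ccl27b have near-identical copies, so that their values and those of Ccl21a and Ccl27a are uncertain, and how reads that fit several copies were counted was not tested. Ccl2, a main attractant of monocytes, overlaps no other gene in the annotation and was also listed at 0. The reason for this was not found, so its 0 is not read as absence of expression either. Cxcl16 overlaps Med11 and Zmynd15 in part, Ccl25 overlaps Elavl1, and Ccl27a overlaps Il11ra1. Reads from the shared stretches could belong to either gene, and how they were counted was not tested.

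The libraries held 30289364 to 65348596 counts and, in 26 of them, 14016 to 16018 genes with a count. Homeostatic assembloid 1 week replicate 2 stood apart with 8465 such genes, only 9 ligand genes with counts and 0.517% of its counts in ligand genes, against 0.0233% to 0.237% in the other libraries. Summed markers of hepatocytes were 1699 TPM in that library and 7276 TPM in fibrotic-like assembloid 1 week replicate 3, against 10549 to 77053 TPM in the other 25. Results on assembloids are therefore given with all libraries and without the first or both of these. All 5 hepatocyte markers were detected in the fresh cells (75285 to 77053 TPM summed). These cells also carried endothelial markers (6.62 to 29.9 TPM, at most 0.775 in any culture) and immune markers (17.7 to 163 TPM). HepOrgs carried cholangiocyte markers at 4792 to 20029 TPM summed, against 9.68 to 102 TPM in fresh cells. Spp1 weighed heavily in this sum, with an average log2 CPM of 12.7 over fresh cells and HepOrgs. The averages were 4.32 for Sox9, 3.27 for Epcam and 2.37 for Krt19. MM HepOrg 2 weeks replicate 3 had an immune marker sum of 1106 TPM, against 20.9 and 68.0 TPM in the other replicates of its condition. In bulk RNA, fewer cells of a type and less RNA per cell cannot be told apart.

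**Figure D1:**
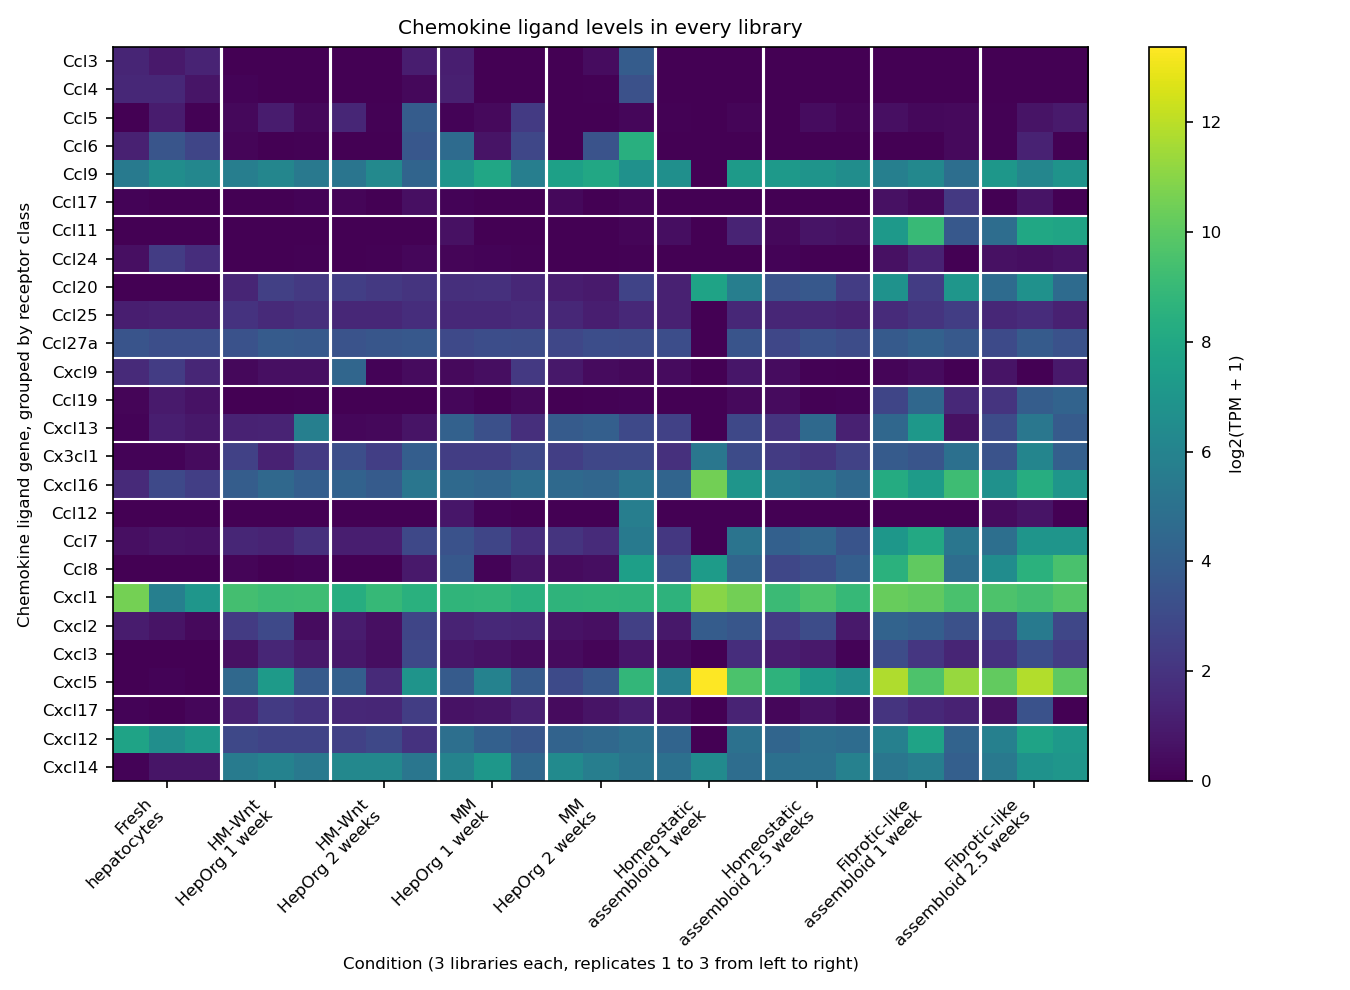
Level of the 26 ligand genes with a mean of at least 1 TPM in some condition (lines, grouped by receptor class) in each of 27 libraries (columns, 3 per condition), as log2(TPM + 1) on the colour scale. Cxcl1 was high in every library, Ccl7, Ccl8, Ccl11 and Ccl19 were brightest in fibrotic-like assembloids, and the dark squares of homeostatic assembloid 1 week replicate 2 mark its many genes without counts.

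Cxcl1, Cxcl2 and Cxcl3 encode neutrophil attractants that act on CXCR2 and are known targets of NF-kB. The promoter stretches of the 3 genes, which are neighbours on chromosome 5, are shown because these paralogs share 1 motif. The 120 bases before each start site are given on the plus strand, from RefSeq on GRCm38.p6, with capitals for a NF-kB-type motif (GGGA, any 2 bases, then TTCC, searched on both strands, with 2 overlapping matches in each gene).
Cxcl1, chr5:90891125-90891244: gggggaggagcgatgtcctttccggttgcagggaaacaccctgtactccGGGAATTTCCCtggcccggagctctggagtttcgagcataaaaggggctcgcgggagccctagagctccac
Cxcl2, chr5:90903779-90903898: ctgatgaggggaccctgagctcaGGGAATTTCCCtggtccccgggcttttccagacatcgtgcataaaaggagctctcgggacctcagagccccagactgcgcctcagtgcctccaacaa
Cxcl3, chr5:90785981-90786100: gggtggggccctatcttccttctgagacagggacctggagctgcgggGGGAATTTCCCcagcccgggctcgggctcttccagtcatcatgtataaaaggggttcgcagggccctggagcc
The motif occurred within 250 bases before the start in 5 of the 28 ligand genes with an entry (Ccl1, Cxcl1, Cxcl2, Cxcl3 and Cxcl10) and in 1.21% of all 32851 promoter entries. A match describes the letters only and does not show a bound site.

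Cxcl1 was detected in every library. In fresh hepatocytes it was at 1507, 53.8 and 131 TPM, a wide spread, while HepOrgs held it at 319 to 652 TPM and assembloids at 395 to 2051 TPM. On TPM recomputed over exon length, Cxcl1 had the highest mean of all ligands in each of the 4 HepOrg conditions. Its mean in fresh cells rested on replicate 1. Cxcl2 remained at 0.278 to 6.71 TPM in fresh cells and HepOrgs, and Cxcl3 was listed at 0 in all 3 fresh libraries.

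To ask how the ligands of HepOrgs differed from those of their cells of origin, each HepOrg condition was set against fresh hepatocytes (edgeR, 15 libraries, 13405 genes tested, threshold 0.05 on the adjusted p). Of the 39 ligands, 21 passed the filter on low counts. In HM-Wnt, 8 rose and 1 fell at 1 week, and 7 rose and 1 fell at 2 weeks. In MM, 8 rose and 2 fell at 1 week, and 9 rose and 2 fell at 2 weeks. These are 42.9%, 38.1%, 47.6% and 52.4% of the ligands tested, beside 49.7%, 51.8%, 42.8% and 39.7% of all genes tested, so that the share of ligands called in either direction was near that of genes in general. In the rising direction alone, 38.1%, 33.3%, 38.1% and 42.9% of the ligands tested were called, beside 24.9%, 26.1%, 21.5% and 19.7% of all genes. Ligands low in fresh cells entered the test through the HepOrg libraries, which favours the rising direction, so the excess is not read as a result about ligands. All 4 comparisons share the 3 fresh libraries. Cxcl5, Cxcl14, Cxcl16, Cxcl17, Cxcl3, Cx3cl1 and Ccl20 rose in all 4 comparisons and Cxcl12 fell in all 4. Of the cholangiocyte markers, Spp1 (log2 fold changes of 7.27 to 7.82) and Epcam (5.26 to 6.27) also rose in all 4. Krt19 rose in HM-Wnt at 2 weeks (4.61 ± 1.28) and Sox9 in MM (1.15 and 1.12). Per the study's methods, stray cholangiocyte organoids or mesenchyme could appear up to passage 2 and were picked out by hand. The part of duct cells in the rise of these ligands was not tested.

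Cxcl5, a further neutrophil attractant made by epithelia, had 1 count in the 3 fresh libraries together. It was at 21.6, 155 and 12.8 TPM in HM-Wnt at 1 week and at 15.8, 2.02 and 121 TPM at 2 weeks. It was at 13.4, 59.5 and 12.7 TPM in MM at 1 week and at 7.06, 11.9 and 458 TPM at 2 weeks. All 12 HepOrg libraries thus lay above the fresh ones, but replicates of 1 condition differed by over an order of magnitude. Against the single fresh count, pooled CPM was 2221 times higher in HM-Wnt at 1 week (exact 95% counting interval 398 to 87757) and 1068 times higher in MM at 1 week (191 to 42235). The edgeR test passed in all 4 comparisons (adjusted p = 0.00768, 0.0132, 0.0200 and 0.00575), but in MM at 1 week the call was lost when any fresh replicate or MM replicate 2 was left out (highest adjusted p = 0.0681, edgeR), and in HM-Wnt at 2 weeks without replicate 3 (adjusted p = 0.0570). Cxcl3, listed at 0 in fresh cells, was at 0.120 to 6.53 TPM in HepOrgs. With a floor of 3 counts per fresh library it was at least 7.33-fold higher in HM-Wnt at 1 week and at least 2.78-fold higher in MM at 2 weeks, where the call was lost without fresh replicate 1 or 3 or without MM replicate 3 (highest adjusted p = 0.0662, edgeR).

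Cxcl14, a chemokine of epithelia and stroma, was at 0.110, 0.676 and 0.672 TPM in fresh cells. It was at 46.3, 59.1 and 41.4 TPM in HM-Wnt at 1 week, at 61.9, 133 and 21.1 TPM in MM at 1 week, and at 34.1 to 82.5 TPM at 2 weeks in both media. No HepOrg library overlapped the fresh range. The log2 fold changes were 6.10 ± 0.84 and 6.14 ± 0.84 (SE) in HM-Wnt at 1 and 2 weeks and 6.62 ± 0.86 and 6.30 ± 0.85 in MM. All had an edgeR adjusted p of at most 8.24e-05, and the calls remained in each of the 14 alternatives run per comparison.

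Ccl20 attracts CCR6-bearing dendritic cells and lymphocytes and is a product of epithelia, including bile duct cells. It was listed at 0 in all 3 fresh libraries. In HepOrgs it was at 0.988 to 5.53 TPM, which was at least 15.9- and 16.7-fold above the floor in HM-Wnt at 1 and 2 weeks and at least 10.7- and 12.3-fold above it in MM. Cx3cl1 and Cxcl16 are the membrane-bound ligands, shed by ADAM proteases and read by CX3CR1 and CXCR6. Cx3cl1 went from 0.108, 0.106 and 0.317 TPM in fresh cells to 1.40 to 15.0 TPM in HepOrgs, with log2 fold changes of 3.54 ± 0.49, 4.68 ± 0.51, 4.04 ± 0.49 and 4.33 ± 0.50 in HM-Wnt at 1 and 2 weeks and MM at 1 and 2 weeks. The edgeR calls of Ccl20 and Cx3cl1 held in all 14 alternatives of each comparison. Cxcl16 went from 2.06, 6.76 and 4.53 TPM to 13.4 to 37.3 TPM, again without overlap, and its log2 fold changes were 1.44 to 2.00. In HM-Wnt the Cxcl16 call was lost without replicate 2 at 1 week (adjusted p = 0.0638) or without replicate 3 at 2 weeks (adjusted p = 0.0615, edgeR).

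Cxcl17, a mucosal chemokine, was at 0.0288 to 0.157 TPM in fresh cells and at 1.47 to 4.33 TPM in HM-Wnt and 0.312 to 1.28 TPM in MM. Its log2 fold changes against fresh cells were 4.17 ± 0.61 and 3.73 ± 0.60 in HM-Wnt and 2.32 ± 0.56 and 2.12 ± 0.56 in MM. The MM calls were lost with all 27 or with 26 libraries in 1 fit (adjusted p up to 0.275 and 0.345, edgeR) and at 2 weeks also on log2(TPM + 1), as was the HM-Wnt call at 2 weeks with 27 libraries (adjusted p = 0.0619). Ccl7, which attracts monocytes through CCR2, rose against fresh cells (0.481 to 0.610 TPM) in MM, by 2.65 ± 0.98 and 3.93 ± 1.04 on the log2 scale at 1 and 2 weeks (edgeR adjusted p = 0.0431 and 0.00885). In HM-Wnt its log2 fold changes were 1.11 ± 0.93 and 1.32 ± 0.93 and were not called (adjusted p = 0.339 and 0.253, edgeR). The media themselves were not called different for it (lowest adjusted p = 0.0607, over both times, edgeR). The MM call at 2 weeks was lost without MM HepOrg 2 weeks replicate 3 (log2 fold change 1.59, adjusted p = 0.0990), the library with the immune markers, and the call at 1 week in 5 of 6 fits that left a library out. Cxcl13, the B cell attractant, rose in HM-Wnt at 1 week and in MM at 2 weeks, but the former rested on 1 library at 54.3 TPM against 1.41 and 1.55 TPM (log2 fold change 0.57 and adjusted p = 0.626 without it, edgeR) and was lost without fresh replicate 1 or 3 too. The MM call was lost in 5 of 6 fits that left a library out.

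Cxcl12, the CXCR4 ligand that retains haematopoietic and progenitor cells near stroma, was the ligand that fell. It was at 214, 97.6 and 147 TPM in fresh hepatocytes. HM-Wnt HepOrgs held 6.55, 5.49 and 5.44 TPM at 1 week and 4.99, 6.48 and 2.91 TPM at 2 weeks, and MM HepOrgs held 28.7, 16.1 and 11 TPM and then 18.0, 22.2 and 28.2 TPM. The groups did not overlap, and MM lay between HM-Wnt and fresh cells. The log2 fold changes were -5.22 ± 0.50 and -5.75 ± 0.51 in HM-Wnt and -3.56 ± 0.46 and -3.25 ± 0.45 in MM (highest edgeR adjusted p = 0.000107). The MM calls at 1 and 2 weeks were lost with all 27 libraries in 1 fit (adjusted p = 0.0583 and 0.0824, edgeR). Endothelial markers fell with Cxcl12 (8, 7, 7 and 8 of 8 tested were called lower in HM-Wnt at 1 and 2 weeks and MM at 1 and 2 weeks). Of 6 immune markers tested, 5, 4, 4 and 2 were called lower and 1 higher each time, while the immune sum in HM-Wnt at 2 weeks (70.1 to 209 TPM) was not below that of fresh cells. Within the fresh cells, the library with the most Cxcl12 (replicate 1) had the lowest endothelial sum (6.62 TPM) and the lowest immune sum (17.7 TPM). The part of these markers in the fall was not tested. Ccl27a, a skin and epithelial chemokine, fell in MM by 0.87 ± 0.22 and 0.80 ± 0.22 on the log2 scale, a call that the TPM-based fits did not give and that was lost at 2 weeks without MM replicate 1 (adjusted p = 0.0519, edgeR). In HM-Wnt at 2 weeks its log2 fold change was -0.53 ± 0.22 (adjusted p = 0.0615), and the media at that time were not called different for it (adjusted p = 0.508, edgeR).

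**Figure D2:**
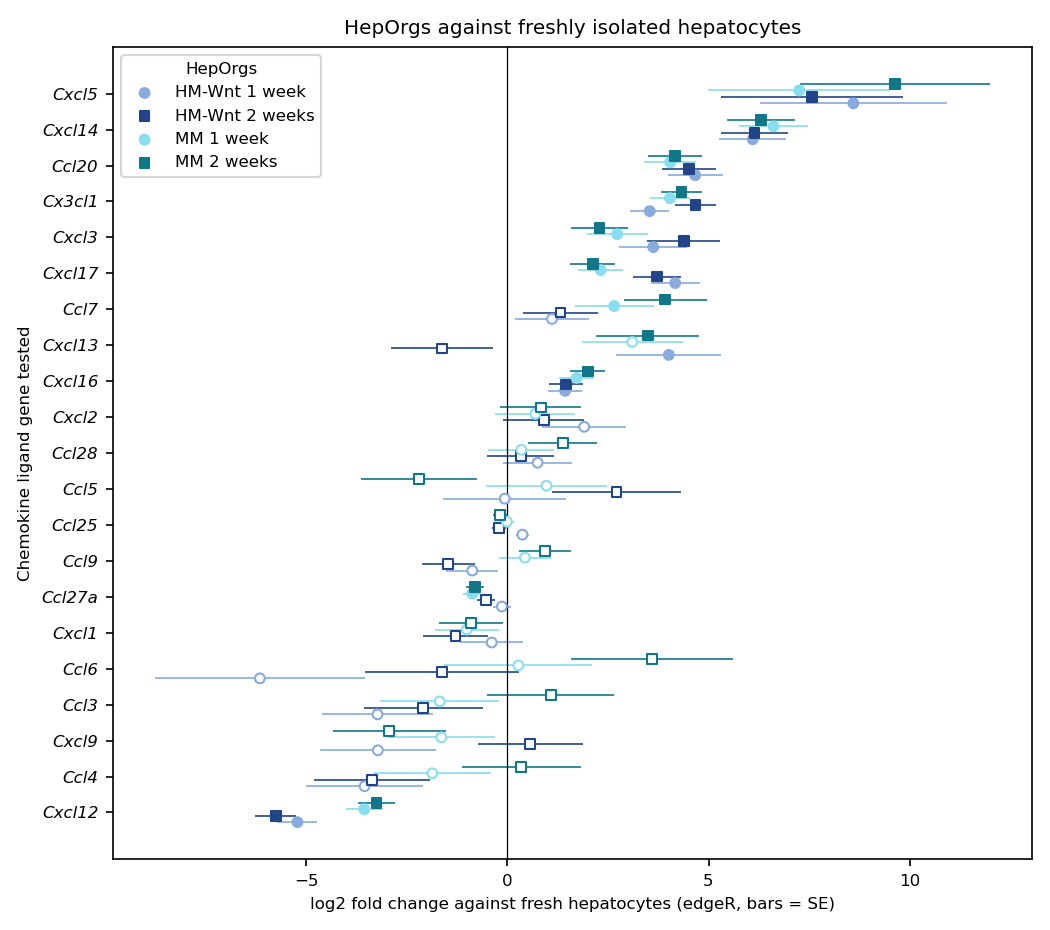
Log2 fold change (x axis, edgeR, bars are SE) of the 21 ligand genes tested (y axis) in 4 HepOrg conditions against fresh hepatocytes, with filled markers for an adjusted p under 0.05. The upper genes, from Cxcl5 to Cxcl17, lie to the right of 0 in all 4 conditions and Cxcl12 alone has filled markers left of 0 in all 4, and fitted values of genes at or near 0 in fresh cells (Cxcl5, Ccl20, Cxcl3) are no measure of a true fold.

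Ccl3 was at 0.854 to 1.57 TPM and Ccl4 at 0.684 to 1.84 TPM in fresh cells, and both were listed at 0 in all 12 assembloid libraries. Ccl9 was present throughout HepOrgs at 18.5 to 262 TPM.

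The medium was then compared within HepOrgs (MM against HM-Wnt, 12 libraries, 12989 genes and 19 ligands tested). Same-numbered HepOrg libraries deviated together in all 18 pairs, so values with the replicate number as a block are given where they change a count. At 1 week no ligand passed (edgeR; 2.98% of all genes did), with 6 ligands at an unadjusted p under 0.05. With the replicate block, 5 passed (9.48% of all genes), namely Cxcl12 and Ccl9 higher in MM and Cxcl17, Cxcl1 and Ccl27a lower. At 2 weeks 3 ligands passed (Cxcl12, Ccl9 and Cxcl13, all higher in MM) beside 11.5% of all genes, and with the replicate block 5 passed (19.6% of all genes), which added Cxcl17 and Ccl5, both lower in MM. Averaged over both times, 5 of 19 passed (26.3%, against 21.5% of all genes), and 6 with the replicate block (28.9% of all genes).

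Cxcl12 was higher in MM by 2.51 ± 0.44 on the log2 scale at 2 weeks (edgeR adjusted p = 0.00554) and by 2.08 ± 0.31 over both times (adjusted p = 0.00109), and every MM library exceeded every HM-Wnt library. With all 27 libraries in 1 fit both calls were lost (adjusted p = 0.587 and 0.274, edgeR). Summed mesenchyme markers were at 31.1 to 82.2 TPM in MM and 13.7 to 63.0 TPM in HM-Wnt. Over both times Lum (3.88 ± 0.90), alone of the mesenchyme markers, Lyz2 (6.02 ± 1.81) and Sox9 (0.62 ± 0.15) were called higher in MM, and Alb lower (-0.89 ± 0.25). The part of these markers in the ligand differences was not tested. Ccl9, a CCR1 ligand of myeloid cells that was also detected in fresh hepatocytes, was at 52.1, 68.8 and 41.6 TPM in HM-Wnt at 1 week and at 35.4, 76.6 and 18.5 TPM at 2 weeks. In MM it was at 125, 240 and 52.5 TPM and then at 195, 262 and 108 TPM. The 2 media overlapped at 1 week and not at 2 weeks. The difference over both times was 1.86 ± 0.48 (edgeR adjusted p = 0.0188), and leaving out any 1 library kept it below the threshold (highest adjusted p = 0.0493). At 2 weeks alone, the call (2.41 ± 0.69, adjusted p = 0.0443) was lost without HM-Wnt replicate 1 or 3 or MM replicate 1 or 2. With all 27 libraries in 1 fit, the Ccl9 calls at 2 weeks and over both times were lost (adjusted p = 0.645 and 0.377, edgeR). Cxcl17 was lower in MM over both times (-1.73 ± 0.35, adjusted p = 0.00625, edgeR), as was Ccl27a by a small margin (-0.50 ± 0.16, adjusted p = 0.0455), which 10 of 12 fits without 1 library no longer called (edgeR). The Cxcl17 call was lost with all 27 or with 26 libraries in 1 fit (adjusted p up to 0.470, edgeR).

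Cxcl13 was at 0.185, 0.222 and 0.656 TPM in HM-Wnt and 13.2, 15.6 and 6.64 TPM in MM at 2 weeks (log2 fold change 5.14 ± 1.39, edgeR adjusted p = 0.0371). At 1 week the order of the media was mixed, with 1.41, 1.55 and 54.3 TPM in HM-Wnt and 16.5, 8.60 and 2.51 TPM in MM. The call at 2 weeks was lost in each fit that left out 1 library except MM replicate 3 (highest adjusted p = 0.126, edgeR). Ccl6, a macrophage-associated CCR1 ligand, was higher in MM over both times (5.85 ± 1.78, adjusted p = 0.0374, edgeR). Its values in MM at 2 weeks were 0, 9.89 and 341 TPM, and without the last of these libraries the change was 3.70 with an adjusted p of 0.0987, one of 7 of 12 fits without 1 library that lost the call. The same library, MM HepOrg 2 weeks replicate 3, also had 186 TPM of Ccl8, 51.3 TPM of Ccl12, 42.6 TPM of Ccl7, 13.6 TPM of Ccl3 and 8.87 TPM of Ccl4, next to its immune marker sum of 1106 TPM. The part of immune cells in these values was not tested.

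**Figure D3:**
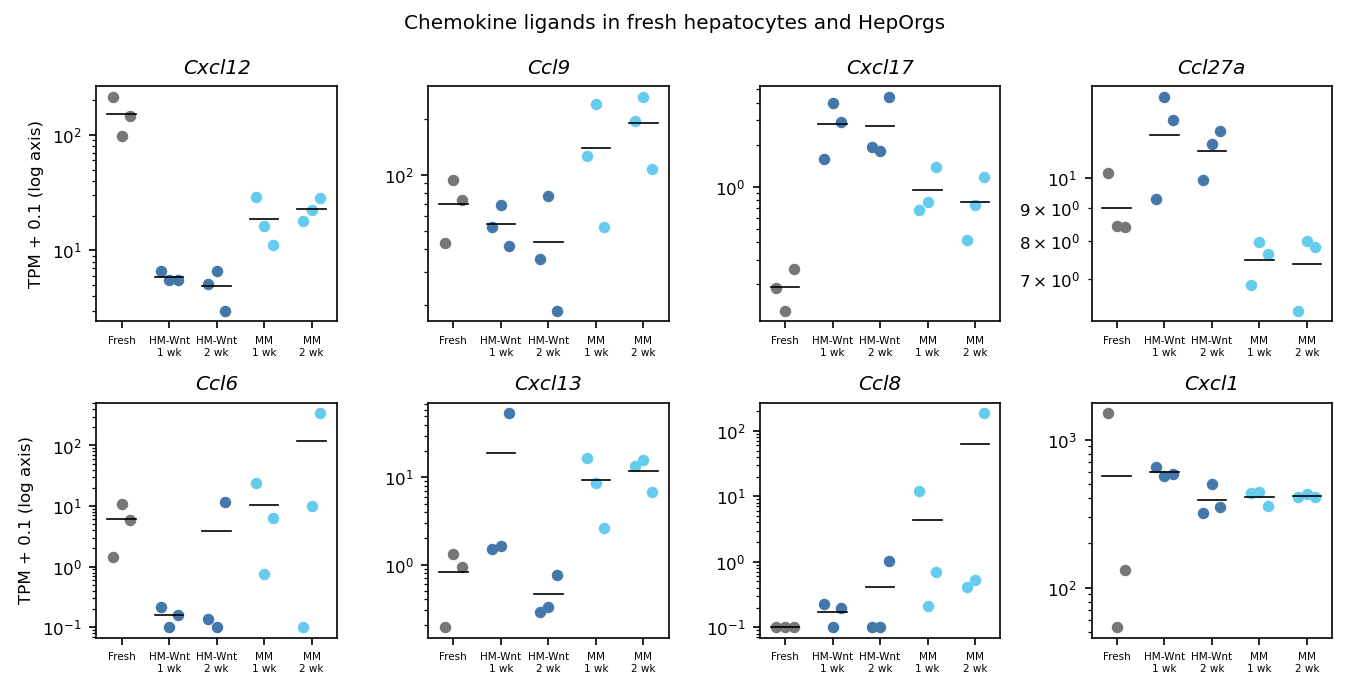
TPM + 0.1 on log axes for 8 ligands in fresh hepatocytes and in HepOrgs in HM-Wnt and MM, with 1 point per library (3 per condition) and a line at the mean. Cxcl12 in MM lies between HM-Wnt and fresh cells, Cxcl17 is lower in MM than in HM-Wnt, and the high point of Ccl6 and Ccl8 in MM at 2 weeks is the library with 1106 TPM of immune markers.

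In assembloids, which contain portal mesenchymal cells, 3 neighbouring CC ligand genes on chromosome 11 reached their highest levels of the series. Ccl7 (GRCm39 chr11:81936532-81938351), Ccl11 (chr11:81948618-81953781) and Ccl8 (chr11:82006007-82007625) lie on the plus strand of the same cluster as Ccl2 and Ccl12. Ccl11, the eosinophil attractant eotaxin, which acts on CCR3, was at 0.420, 0 and 1.52 TPM in homeostatic assembloids at 1 week and at 0.240, 0.651 and 0.494 TPM at 2.5 weeks. In fibrotic-like assembloids it was at 142, 510 and 11.6 TPM at 1 week and at 26.2, 245 and 226 TPM at 2.5 weeks. Every fibrotic-like library was above every homeostatic library at either time. The log2 fold changes were 7.63 ± 1.85 at 1 week, 7.70 ± 1.86 at 2.5 weeks and 7.66 ± 1.31 over both, but with all 12 libraries none passed (edgeR adjusted p = 0.271, 0.714 and 0.0848).

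With all libraries no ligand of 23 tested passed at 1 week, at 2.5 weeks or over both times (edgeR), and nor did any of the 14253 genes tested (0% in each comparison). At an unadjusted p under 0.05 there were 4, 5 and 6 ligands, beside 14.1%, 6.62% and 18.8% of all genes. DESeq2 on the same libraries called 2, 3 and 5 ligands (6.08%, 1.92% and 12.4% of all genes), all higher in fibrotic-like assembloids and each time including Ccl11 and Ccl19. Without homeostatic assembloid 1 week replicate 2, edgeR called 2 of 23 ligands at 1 week (8.01% of all genes), 0 at 2.5 weeks (0.258%; 38 genes) and 10 over both times (29.7%). Those 10 are 43.5% of the ligands tested. Some ligands near 0 in homeostatic assembloids entered the test through the fibrotic-like libraries, which favours the higher direction. The excess over all genes is therefore not read as a result about ligands. The 9 higher ones were Ccl11, Ccl19, Ccl8, Ccl7, Ccl24, Cxcl5, Cxcl15, Cxcl16 and Cx3cl1, and Ccl9 was lower. Leaving out fibrotic-like assembloid 1 week replicate 3 as well gave 10 again (28.4%), with Cxcl12 in place of Cxcl15, and 1 ligand, Ccl11, at 1 week (1.87% of all genes).

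Ccl8 and Ccl7, monocyte attractants, were also high in fibrotic-like libraries. Ccl8 was at 7.57, 162 and 19.3 TPM in homeostatic assembloids at 1 week and at 6.19, 8.11 and 15.0 TPM at 2.5 weeks. It was at 374, 1119 and 26.2 TPM and at 88.3, 370 and 738 TPM in fibrotic-like assembloids. The groups overlapped at 1 week through the homeostatic replicate 2 that stood apart, and did not at 2.5 weeks. Without that library the difference over both times was 4.63 ± 1.04 (log2, edgeR adjusted p = 0.0148). Ccl7 was at 3.57, 0 and 34.3 TPM and at 16.5, 20.6 and 9.98 TPM in homeostatic assembloids, against 135, 266 and 36.4 TPM and 28.2, 124 and 127 TPM in fibrotic-like ones. Its groups did not overlap at either time, and the difference without that library was 2.13 ± 0.68 (adjusted p = 0.0423, edgeR). Ccl19, the CCR7 ligand that guides dendritic cells and T cells to lymphoid stroma, was at 0 to 0.300 TPM in homeostatic and at 1.92 to 21.3 TPM in fibrotic-like assembloids, a difference of 4.79 ± 0.94 without that library (adjusted p = 0.0114, edgeR). Ccl24, the second eotaxin, and Cxcl15 were called too, but only at up to 1.44 and 1.06 TPM, and rested on at most 2 counts in the homeostatic group at a given time.

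Cxcl5 had the widest range of all ligands in assembloids. It was at 50.9, 10591 and 755 TPM in homeostatic assembloids at 1 week and 394, 156 and 95.6 TPM at 2.5 weeks. In fibrotic-like ones it was at 3459, 808 and 2503 TPM and at 1148, 3616 and 1050 TPM. The homeostatic library at 10591 TPM was again replicate 2, which also had the highest Cxcl16 (1493 TPM), Ccl20 (217 TPM) and Cxcl1 (2051 TPM) of all 12 assembloid libraries. At 2.5 weeks the groups did not overlap. With all libraries the log2 difference in Cxcl5 was -1.02 at 1 week and 0.71 over both times (edgeR adjusted p = 0.751 and 0.738). Without replicate 2 the difference over both times was 2.09 ± 0.64 (log2, edgeR adjusted p = 0.0358). Cxcl16 was at 18.7 and 126 TPM in the other homeostatic libraries at 1 week and at 48.7, 37.4 and 22.6 TPM at 2.5 weeks. It was at 295, 162 and 604 TPM and at 107, 320 and 131 TPM in fibrotic-like assembloids. Its log2 difference with all libraries was -1.03 at 1 week and 0.32 over both times (edgeR adjusted p = 0.680 and 0.883). Over both times without replicate 2 it was 1.52 ± 0.39 (adjusted p = 0.0218, edgeR). Ccl20 did not pass in any of these fits. It was at 9.70, 11.7 and 4.15 TPM in homeostatic and 24.7, 107 and 24.2 TPM in fibrotic-like assembloids at 2.5 weeks.

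Cx3cl1 depended on the same library. It was at 2.57, 38.1 and 7.27 TPM in homeostatic assembloids at 1 week and at 4.02, 3.05 and 5.11 TPM at 2.5 weeks, against 13.5, 10.3 and 29.3 TPM and 9.56, 67.8 and 15.3 TPM. Its fitted change at 1 week was -0.35 with all libraries and 0.84 without replicate 2, and neither passed (edgeR adjusted p = 0.875 and 0.314). Over both times it was 0.85 (adjusted p = 0.451) and, without replicate 2, 1.44 ± 0.39 (adjusted p = 0.0245, edgeR).

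Cxcl12 was at 19.1, 0 and 31.1 TPM and at 19.2, 28.1 and 26 TPM in homeostatic assembloids, against 54.8, 215 and 17.8 TPM and 56.4, 212 and 151 TPM in fibrotic-like ones. The groups overlapped at 1 week, through fibrotic-like replicate 3, and not at 2.5 weeks. The change over both times was 1.77 (edgeR adjusted p = 0.460), 1.47 without the homeostatic replicate 2 (adjusted p = 0.0899) and 1.74 ± 0.40 without that library and fibrotic-like 1 week replicate 3 (adjusted p = 0.0186). Cxcl1 gave no call. It was at 395, 2051 and 1483 TPM and 552, 759 and 491 TPM in homeostatic assembloids and at 1212, 1100 and 734 TPM and 786, 651 and 886 TPM in fibrotic-like ones, with log2 fold changes of -0.86 ± 0.47 at 1 week, -0.12 at 2.5 weeks and -0.49 over both (edgeR adjusted p = 0.433, 1.00 and 0.484). Ccl9 was the ligand that went the other way, at 102 and 156 TPM in homeostatic assembloid 1 week replicates 1 and 3 against 54.1, 75.1 and 27.8 TPM in fibrotic-like ones, while the libraries at 2.5 weeks overlapped. It was lower at 1 week by -2.18 ± 0.56 (adjusted p = 0.0474) and over both times by -1.39 ± 0.38 (adjusted p = 0.0253, edgeR) without replicate 2, and not called at 1 week once fibrotic-like replicate 3 was left out too.

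**Figure D4:**
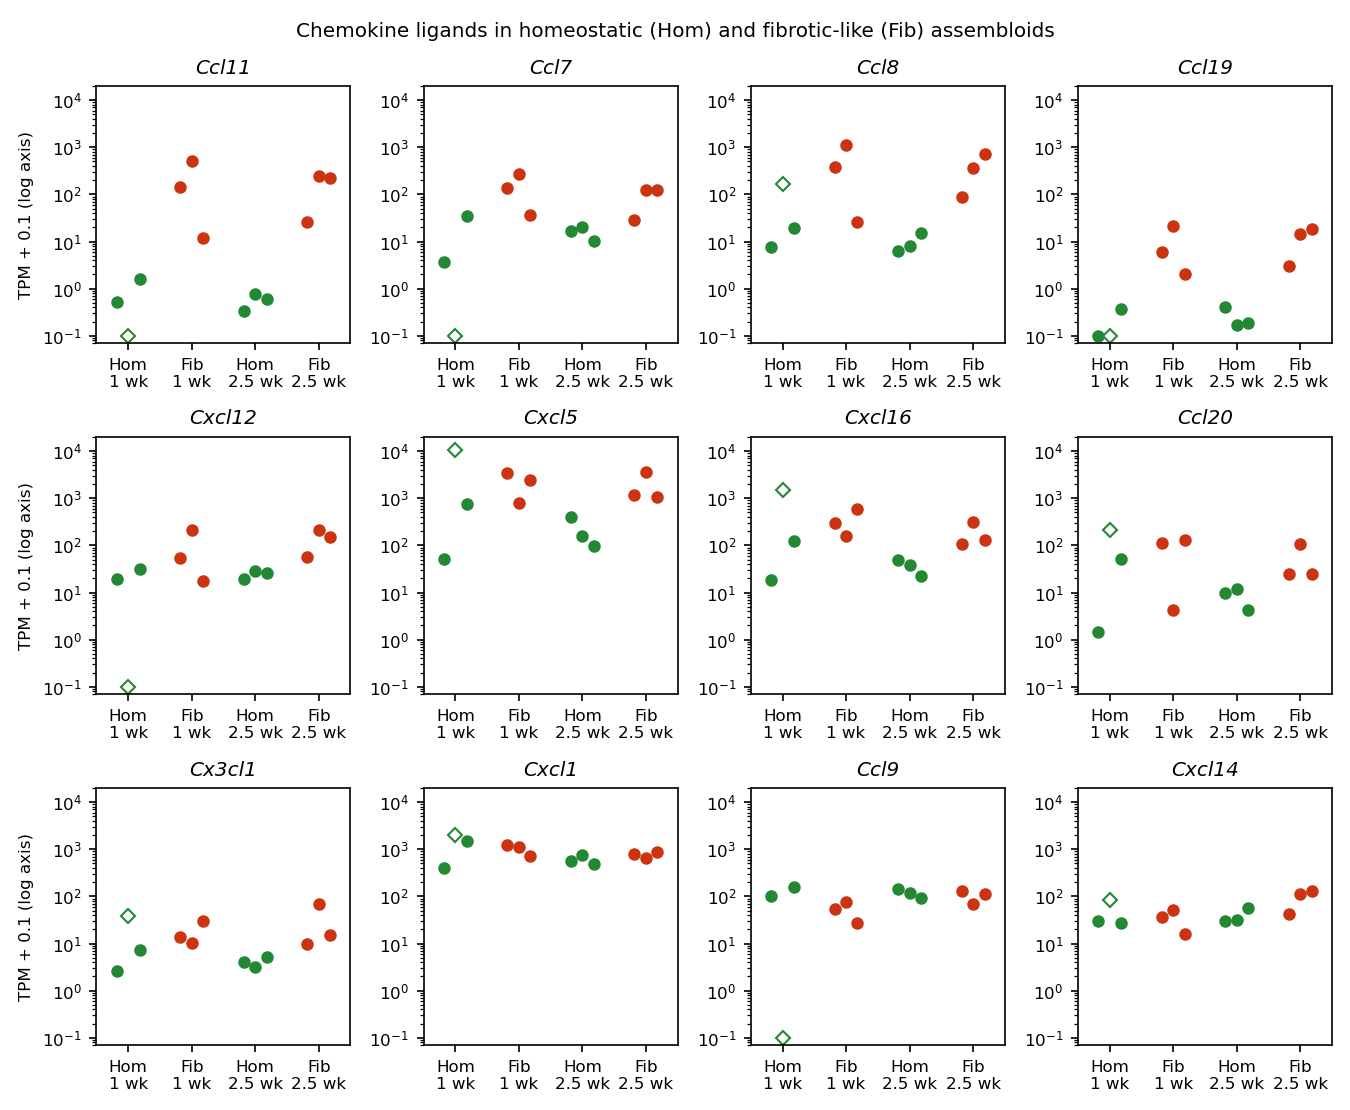
TPM + 0.1 on log axes for 12 ligands in homeostatic (Hom, green) and fibrotic-like (Fib, red) assembloids, with 1 point per library and an open diamond for homeostatic assembloid 1 week replicate 2. Ccl11 and Ccl19 do not overlap between the 2 kinds at either time, and the diamond is the highest point for Cxcl5, Cxcl16, Ccl20 and Cxcl1 and lies at 0 counts for Ccl11, Ccl7, Ccl19, Cxcl12 and Ccl9.

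The number of ligands without overlap was near the background. Ligands whose fibrotic-like libraries all exceeded the homeostatic ones in TPM numbered 7 at 1 week (Ccl5, Ccl7, Ccl11, Ccl19, Ccl25, Ccl27a and Cxcl15; 39.1% of all genes did) and 11 at 2.5 weeks (Ccl7, Ccl8, Ccl11, Ccl19, Ccl20, Ccl24, Cx3cl1, Cxcl3, Cxcl5, Cxcl12 and Cxcl16; 40.0% of all genes). Over both times there were 2, Ccl11 and Ccl19 (10.4% of all genes). The median log2 fold change of the 23 ligands tested was 0.90 at 1 week and 1.81 at 2.5 weeks, beside 0.20 and 0.03 for all genes. Ligands such as Ccl19, Ccl24 and Cxcl15 passed the count filter through the fibrotic-like libraries, which raises this median. It is therefore not read as a result about ligands.

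Mesenchyme markers were mostly higher in fibrotic-like assembloids. Their summed level was 49.0, 553 and 140 TPM in homeostatic assembloids at 1 week and 70.4, 103 and 70.1 TPM at 2.5 weeks, and 1493, 3397 and 242 TPM and 525, 2610 and 1517 TPM in fibrotic-like ones. All 8 markers tested were called higher over both times without homeostatic replicate 2 (edgeR), as were 4 of 5 cholangiocyte markers and 1 of 5 immune markers tested, the macrophage lysozyme gene Lyz2 (3.98 ± 0.83). The 6 fibrotic-like libraries stood in the same order for Ccl11 as for the mesenchyme sum, with fibrotic-like 1 week replicate 3 lowest and replicate 2 highest in both. Cxcl12 kept this order except that 1 week replicate 1 and 2.5 weeks replicate 1 changed places. Ccl8 kept it except that 2.5 weeks replicates 2 and 3 changed places. Cxcl16 and Cxcl5 stood in other orders. Of these 6 libraries, 1 week replicate 3 had the highest Cxcl16 and 1 week replicate 2 the lowest Cxcl5. Of the immune markers, Itgam was at 0 in every condition, fresh cells included, and Clec4f in every culture, so neither bears on assembloids in particular. The immune sum was 0.0442 to 11.1 TPM in homeostatic and 15.0 to 51.5 TPM in fibrotic-like ones, and its part in the ligand levels was not tested. Since the groups were made with different numbers of mesenchymal cells, more such cells and more ligand RNA per cell cannot be told apart.

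**Figure D5:**
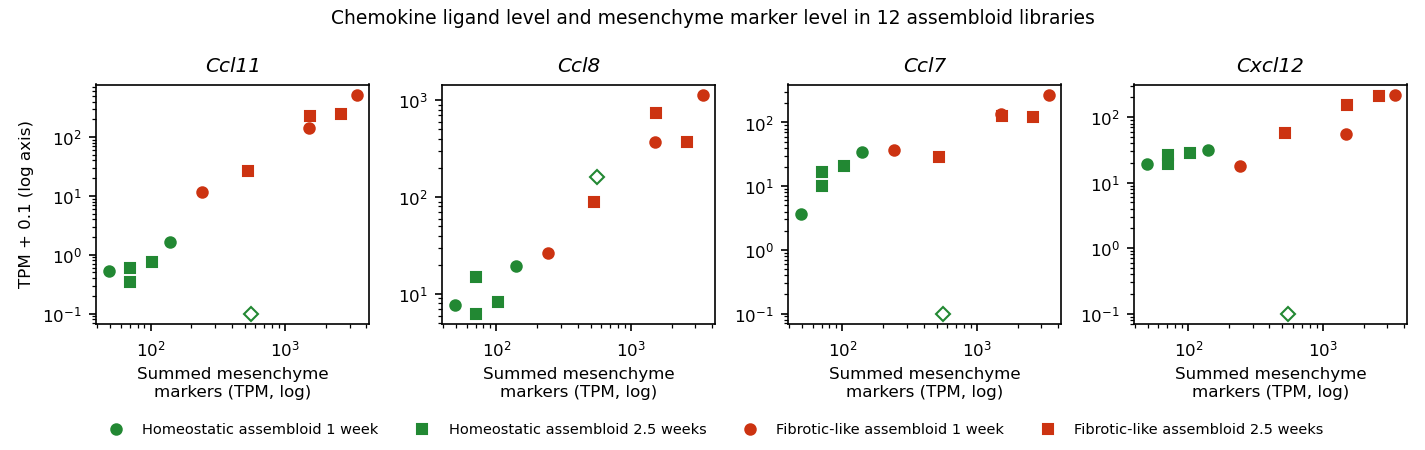
Level of Ccl11, Ccl8, Ccl7 and Cxcl12 (TPM + 0.1, y axis, log) against the summed level of 8 mesenchyme markers (TPM, x axis, log) in 12 assembloid libraries, coloured by kind, with an open diamond for homeostatic assembloid 1 week replicate 2. Fibrotic-like libraries, at 242 to 3397 TPM of markers, are all above the homeostatic ones for Ccl11, while the kinds overlap for Ccl8, Ccl7 and Cxcl12, and the diamond has 553 TPM of markers with no counts of Ccl11, Ccl7 or Cxcl12.

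Neither the change of the fibrotic-like effect between 1 and 2.5 weeks nor the assembloid time course gave a called ligand (edgeR, 0 of 23 and 0% of all genes in each, also by DESeq2 and without the doubted libraries). At an unadjusted p under 0.05 there were 1 ligand (1.95% of all genes) for the first and 2 (4.20%) for the second.

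Assembloids were also set against HepOrgs kept in the same medium for the same 1 week (18 libraries, 14386 genes and 24 ligands tested). Homeostatic assembloids gave no call among ligands or all genes (edgeR, 0%; 7 ligands and 15.6% of genes at an unadjusted p under 0.05), and 0 of 26 ligands without their replicate 2 (0.0270% of genes). DESeq2 on all libraries called 4 (6.22% of genes). Fibrotic-like assembloids gave 0 of 24 with all libraries (0.751% of genes; 9 ligands at an unadjusted p under 0.05), 7 by DESeq2 (14.5%) and 10 of 26 once homeostatic replicate 2 was left out of the fit (34.7%). The 7 higher were Ccl11 (edgeR adjusted p = 0.00205), Ccl8 (5.91 ± 2.11, log2), Cxcl5 (5.30 ± 1.46), Ccl19 (4.44 ± 1.09), Ccl20 (4.02 ± 1.16), Ccl7 (3.70 ± 1.16) and Cxcl16 (2.87 ± 0.47). Ccl6 (-7.07 ± 2.42), Ccl9 (-2.33 ± 0.64) and Cxcl14 (-1.97 ± 0.72) were lower. Summed immune markers were at 56.3 to 193 TPM in these HepOrgs and 15.2 to 42.4 TPM in fibrotic-like assembloids at 1 week. The part of immune cells in the lower ligands was not tested. These 2 comparisons share the MM HepOrg libraries.

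The receptors of these ligands were scarcely measured. Of 18 chemokine receptor genes, 3 passed the filter in assembloids, where none was called, and 3 in the comparison with fresh cells, where Cx3cr1, the Cx3cl1 receptor, was lower in 3 of the 4 HepOrg comparisons (log2 fold changes of -1.37 to -1.64 there). Among 5 atypical receptors, Ackr1 (4.99 ± 0.95) and Ackr3 (4.75 ± 0.87), a scavenger of Cxcl12, were higher in fibrotic-like assembloids without homeostatic replicate 2, and Ackr2 (-3.68 ± 0.88), which clears inflammatory CC ligands, was lower. Ackr1 and Ackr2 were lower in all 4 HepOrg comparisons with fresh cells, and Ccrl2, which binds the attractant chemerin, was higher in HM-Wnt (1.85 ± 0.57 and 2.64 ± 0.58).

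Of the 7 enzymes that cleave or shed chemokines, Dpp4, which trims Cxcl12, fell in all 4 HepOrg conditions (-2.73 to -4.10) and Adam10, a sheddase of Cx3cl1 and Cxcl16, rose in all 4 (0.85 to 0.99). In fibrotic-like assembloids without homeostatic replicate 2, Mmp3 (3.94 ± 0.78), Mmp2 (3.79 ± 0.74) and Adam17 (0.36 ± 0.12) were higher and Dpp4 was lower (-1.53 ± 0.35). Of 17 NF-kB and cytokine genes, 15 were tested against fresh cells, and 6 or 7 rose and 1 fell in each HepOrg condition. In either direction that share was near the 39.7% to 51.8% of all genes called there, while 19.7% to 26.1% of all genes rose. Icam1, the leukocyte adhesion molecule, rose in all (2.64 to 2.85), as did Nfkb2 (0.96 to 1.82), and Il1a fell (-1.53 to -2.04). In fibrotic-like assembloids without homeostatic replicate 2, 5 of 16 were called, all higher. In that fit 29.7% of all genes were called in either direction, and 2395 of 14746 genes were called higher. The list was chosen with earlier results of these data known. The higher shares here and in HepOrgs are therefore not read as a result about these genes. The 5 were Il6 (4.10 ± 1.27), Vcam1 (2.49 ± 0.54), Csf1 (1.85 ± 0.28), Lif (1.01 ± 0.34) and Nfkb2 (0.85 ± 0.15). Of 14 interferon response genes tested in the same fit, 5 were called in either direction, near that 29.7%. Higher were Gbp2 (2.33 ± 0.28) and Ifngr1 (1.43 ± 0.26), and lower were Irf7 (-1.78 ± 0.30), Stat2 (-0.92 ± 0.25) and Irf9 (-0.62 ± 0.14). Cxcl9, the interferon-induced ligand with counts, was at 1.71 to 4.19 TPM in fresh cells and at most 0.856 TPM in assembloids, with 19.9 TPM in 1 HepOrg library (HM-Wnt at 2 weeks, replicate 1), and was called in no comparison by edgeR.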

How the data were processed

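Bulk RNA-seq of 27 libraries was used, and 10 further libraries of the table were not used here. Per the labels and the study's methods, the authors prepared libraries by Smart-seq2 with Nextera, sequenced them in pairs, aligned reads to GRCm39 with STAR and counted reads per gene with featureCounts. The deposited table holds raw counts and TPM made by the authors, whose gene lengths lay within 5% of the gene span, introns included, for 80.4% of the genes found in GENCODE vM39. TPM is therefore used here mainly to compare 1 gene between libraries. Members and gene lists were chosen with earlier results of these data known.

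Counts were tested with edgeR 4.0.16 (R 4.3.3; TMM, quasi-likelihood, filterByExpr with a minimum count of 10 and total of 15, prior count 2) with 1 mean per condition and Benjamini-Hochberg adjustment over all genes tested, separately for assembloids, MM cultures, HepOrgs with fresh cells, and HepOrgs. The scripts were tested on simulated counts. Alternatives were DESeq2 1.42.0, limma 3.58.1 on log2(TPM + 1) and log2(TPM + 0.1), RLE scaling, no filter, a replicate block, 1 fit of all libraries, and leaving out each library. Same-numbered HepOrg libraries correlated at 0.127 to 0.503 in their deviations from the condition means (18 of 18 pairs above 0.1), so their numbers were taken as pairing, as a hint from the data. No source gives how cultures of 1 condition relate, so that p-values measure the spread between these libraries, which may be technical. Ligands with a mean of at least 1 TPM in a condition are described, and those past 0.05, besides Ccl11, Cxcl1, Cxcl12 and Cx3cl1, are given with their statistics. Of the other lists, up to 3 genes per direction with the highest mean level are named. Counting intervals and floors cover counting error only. The count for 1 group of ligands is not reported here.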

Additional observations from a re-analysis of the deposited data

How the results depend on the processing

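Of 226 recomputed counts of called ligands, 180 stayed within 1.5 times the value given above and 46 moved, and of 866 recomputed single-gene values 739 kept direction and side of the threshold, 93 lost it, 22 gained it and 12 changed sign. For fibrotic-like against homeostatic assembloids, the counts of 0 at 1 week, 2.5 weeks and both times became 2, 3 and 5 with DESeq2. They became 3 (1 week) and 5 (both) on log2(TPM + 1), 2 and 3 on log2(TPM + 0.1), and 3 and 4 with all 27 libraries in 1 fit. Fits chosen after seeing the data gave 4, 4 and 10 with 26 libraries (without homeostatic assembloid 1 week replicate 2) and 1 and 10 (1 week, both) without that library and fibrotic-like 1 week replicate 3. Against MM HepOrgs, homeostatic assembloids gave 4 (DESeq2) and 1 (27 libraries), and fibrotic-like ones gave 7 (DESeq2), 7 and 5 (TPM + 1 and TPM + 0.1), 4 (27 libraries), and 10 with 26 libraries or without homeostatic replicate 2 in the fit. MM HepOrgs against fresh cells gave 6 at either time with 27 libraries. MM against HM-Wnt gave 3 and 6 with DESeq2 at 1 and 2 weeks, 1 at 1 week in both TPM fits, 5 at either time with the replicate block, and 0 at 2 weeks and over both times with 27 libraries. Leaving out each library in turn gave 0 to 2 (1 week) and 0 to 10 (both) for fibrotic-like against homeostatic assembloids, and 0 to 4 for homeostatic assembloids against MM HepOrgs, with 4 reached without homeostatic replicate 1. It gave 0 to 1, 1 to 4 and 3 to 7 for MM against HM-Wnt at 1 week, 2 weeks and both, and against fresh cells 8 to 10, 7 to 10, 8 to 12 and 9 to 12. Sign changed for Cx3cl1 at 1 week (0.70 on log2(TPM + 1), 0.82 on log2(TPM + 0.1), 0.0546 with the replicate block, 0.84 without homeostatic replicate 2, 0.57 without both doubted libraries, 0.85 with 26 libraries). It also changed for Cxcl1 at 2.5 weeks (0.38 in both TPM fits, 0.02 without homeostatic 2.5 weeks replicate 2, 0.17 without fibrotic-like 2.5 weeks replicate 2) and over both times (0.14 in both TPM fits). Without 1 library, Cx3cl1 at 1 week ranged from -0.73 to 0.84 and Cxcl1 at 2.5 weeks from -0.35 to 0.17, and none of these values was called. The TPM fits moved the centre (median log2 fold change over genes tested) by -0.320 to 0.668 (TPM + 1) and -0.598 to 1.21 (TPM + 0.1). Replicate numbers paired the HepOrg libraries only, and elsewhere the block left the counts of 0 among assembloids at 0 and gave 10, 10, 10 and 11 against fresh cells. The cause of these changes was not tested. Cxcl5 by DESeq2 and Cxcl3 in the TPM fits had no adjusted p against fresh cells.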
